A study of Mus musculus with 6 samples.

Results

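Heart muscle genes were examined in RNA from the tail end of mouse embryos, where they marked 1 pool out of 6. The set holds 40 genes of 12393 measured, read by 70 probe sets of the 20380 that the platform annotation ties to a single gene symbol. The genes were chosen with the deposited values in view: 1 pool of mutant embryos had already been seen to be high in heart muscle genes, and the set extends that observation over sarcomere proteins, calcium handling, secreted peptides and cardiac regulators. The height of that pool is therefore a description of how the set was chosen, and no test is applied to it.

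The embryos were C57BL/6 mice at 9.5 days post coitum. The mutant group was Dll3 neo/neo, homozygous for Dll3tm1Rbe, an engineered allele of the divergent Notch ligand Dll3, and the wild-type group carried normal Dll3. There were 3 replicate pools of each genotype, described as biological replicates in the series design, and each pool was read on 1 Affymetrix MOE430A array. The dissected piece was everything behind the newest somite, with the allantois removed, so it held tissue of all germ layers and not the presomitic mesoderm alone. How many embryos went into a pool is not known here. P-values below measure the spread between these pools. The replicate numbers below are those of the labels.

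For most probe sets the deposited value divides the signal by the median of that probe set across all 6 arrays. A ratio of 1 is then the middle of the pools, and levels of different genes cannot be compared. For 1640 of 22626 probe sets the middle lay below 1, so their divisor was not that median and is unknown here. Among them were 1 probe set of Tnnt2 (0.7175) and 1 of Myh6 (0.5275). Ratios under 1 in the other 5 pools do not mean that those genes were lowered there. The median ratio of the arrays lay between 0.985 and 1.01. The Dll3 ratio was 0.480, 0.476 and 0.537 in mutant pools 1, 2 and 3, against 1.46, 1.63 and 2.01 in wild-type pools 1, 2 and 3, so mutant pool 1 matched its genotype label as well as the other mutant pools did.

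The heart is the first organ to work in the embryo, and by this stage it is a beating, looped tube with atrial and ventricular regions. Its muscle cells shorten when myosin thick filaments pull on actin thin filaments, and calcium released into the cell switches the thin filament on through the troponin complex. The heart lies in the anterior trunk, in front of the level at which these embryos were cut. Several embryonic heart proteins are shared with early skeletal muscle, among them cardiac actin (Actc1), Myl4 and slow troponin I (Tnni1), so single genes of the set are not specific to the heart.

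Mutant pool 1 was the highest of the 6 pools for 34 of the 40 genes, or 85%, where it was the highest for 12% of all genes. It lay at least 2-fold above the mean of the other 5 pools for 15 members, or 37.5%, against 0.178% of all genes (22 genes), and the 14 genes with the largest such difference on the whole array were all members. No member lay 2-fold below the other pools, and 0.00807% of all genes did, which was Dll3 alone. Because the rule used these values, nothing is read from those shares. Means over pools were taken on the log2 scale. Over the 40 members the median log2 difference between mutant pool 1 and the mean of the other 5 pools was 0.63, a 1.54-fold higher level, and over all genes it was -0.02. In bulk tissue, fewer cells of a type and less RNA per cell cannot be told apart, and this holds for every value below.

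**Figure D1:**
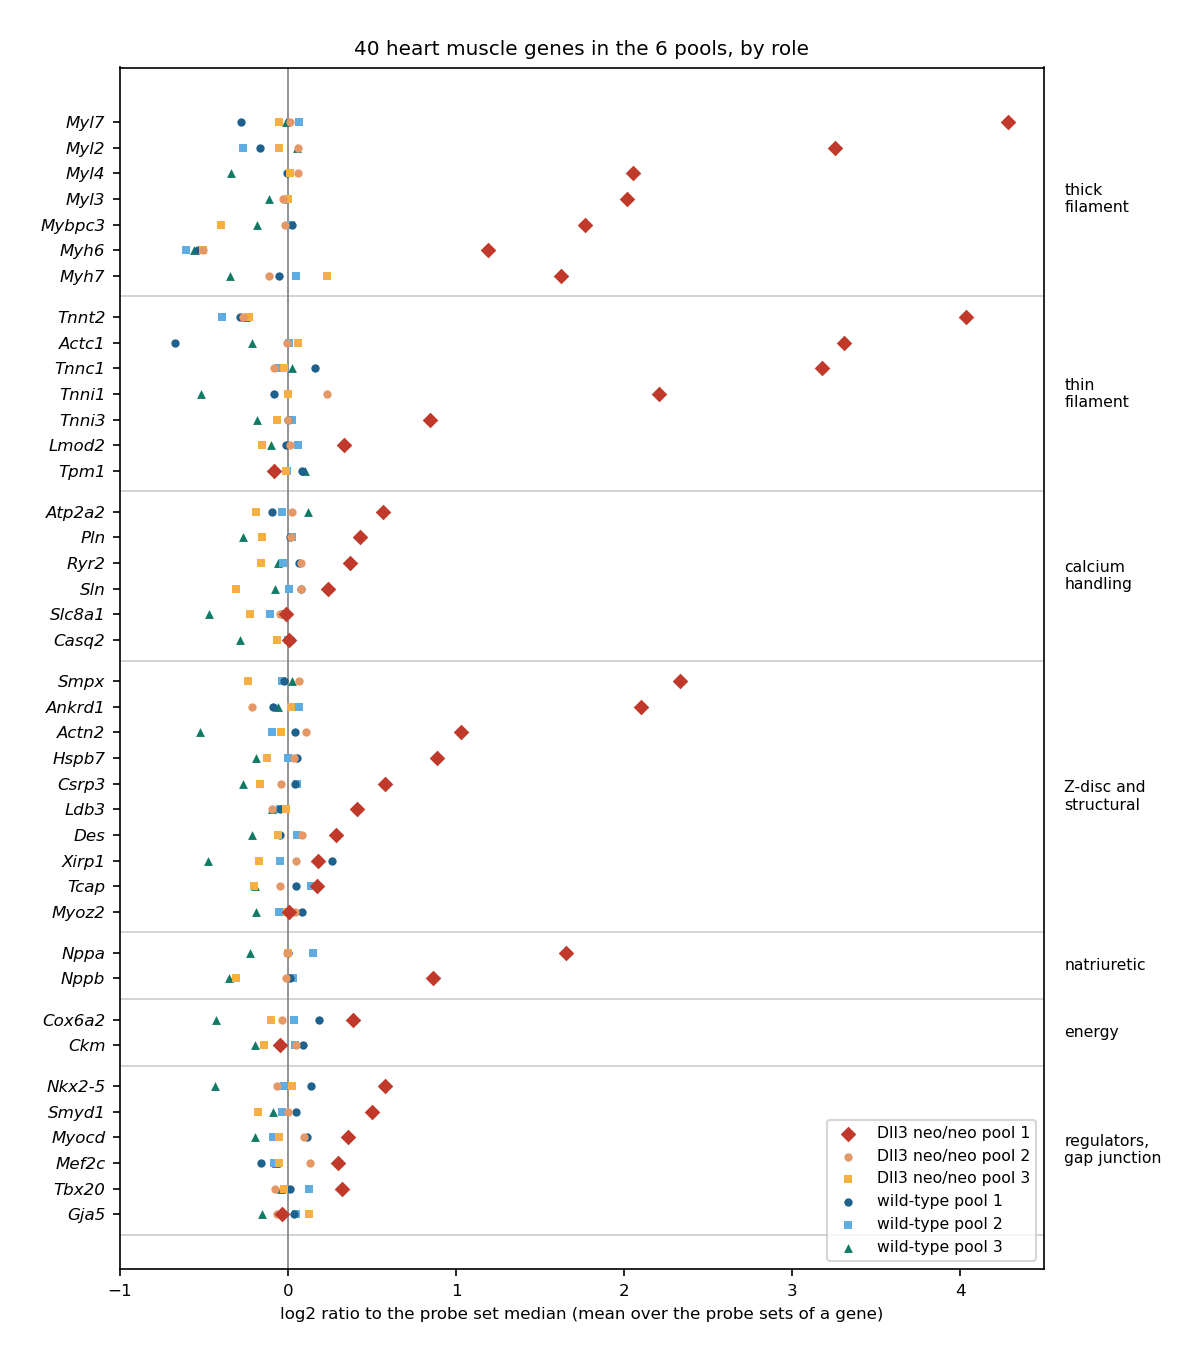
Each row is 1 member, grouped by role, and each point is 1 pool on the log2 ratio scale, averaged over the gene's probe sets. The red diamonds of mutant pool 1 reach 4.28 for Myl7 and 4.03 for Tnnt2, while the other 5 pools of every member span less than 1 log2 unit.

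The thick filament genes encode myosin chains and their binding protein. All 7 were at least 2-fold above the other pools in mutant pool 1, and their median fold was 4.14. Myl7, the regulatory light chain found in atrial muscle and throughout the early heart tube, had a ratio of 19.5 in mutant pool 1, 1.01 and 0.965 in mutant pools 2 and 3, and 0.823, 1.05 and 0.993 in wild-type pools 1, 2 and 3. It was 20.2-fold above the mean of the other 5 pools, or 4.34 on the log2 scale. With quantile normalization that log2 difference was 1.59. On the deposited ratios Myl7 and Tnnt2 led all genes, and Tnnt2 was above Myl7 under some alternatives. Myl2, the regulatory light chain of ventricular muscle, had 9.55 in mutant pool 1, 1.04 and 0.964 in mutant pools 2 and 3, and 0.891, 0.832 and 1.04 in the wild-type pools, a 10.1-fold difference. For both light chains mutant pool 1 stood alone. Mutant pools 2 and 3 lay among the wild-type pools for Myl7, and for Myl2 mutant pool 2 was slightly above all of them. Myl4, the essential light chain of atrial and embryonic muscle, had an average ratio of 4.16 in mutant pool 1, against 1.04 and 1.01 in mutant pools 2 and 3 and 0.996, 1.01 and 0.792 in the wild-type pools. That average hides a split between its probe sets, described below. Myl3, the ventricular essential light chain, was 4.14-fold above the other pools, and Mybpc3, the myosin-binding protein C of the heart, was 3.68-fold above them. The myosin heavy chains Myh6 and Myh7, which do the pulling, were 3.33-fold and 3.18-fold above them.

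The thin filament genes, actin and its calcium switch, split into high and near-flat members. Tnnt2, the cardiac troponin T that anchors the troponin complex to tropomyosin, had an average ratio of 16.4 in mutant pool 1, 0.829 and 0.852 in mutant pools 2 and 3, and 0.821, 0.761 and 0.840 in the wild-type pools, 19.96-fold above the mean of the others. Actc1, cardiac actin, had 9.93 in mutant pool 1, 0.994 and 1.04 in mutant pools 2 and 3, and 0.628, 1.01 and 0.862 in the wild-type pools, 11.1-fold above. Tnnc1, the calcium-binding troponin C of heart and slow muscle, had 9.07 in mutant pool 1, 0.943 and 0.982 in mutant pools 2 and 3, and 1.12, 0.960 and 1.02 in the wild-type pools, 9.04-fold above. In each of these genes the ratios of the other 5 pools stayed between 0.628 and 1.12. The inhibitory subunit was read by a pair of genes: Tnni1, the slow isoform that the embryonic heart uses, was 4.86-fold above the other pools, and Tnni3, the isoform of the mature heart, was 1.85-fold above them. Lmod2, a nucleator of actin filaments, was 1.30-fold above them. Tpm1, the tropomyosin of striated muscle that is also made by many other cells, was 1 of the 3 members with a lower value in mutant pool 1. It had 0.943 in mutant pool 1, 0.940 and 0.991 in mutant pools 2 and 3, and 1.06, 0.996 and 1.07 in the wild-type pools. Mutant pool 1 thus lay between mutant pools 2 and 3, and all 3 lay below the wild-type pools.

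The promoters of Myl7, Actc1 and Nppa are shown because these genes are among the highest of the thick filament, thin filament and secreted groups and each has a single start in the RefSeq table of GRCm38.p6. Each stretch runs 5′ to 3′ along the gene, from 250 bases before its annotated start to 50 after it. Capitals mark matches, on either strand, to the motifs counted in the next paragraph.
Myl7, chr11:5898733-5899032, minus strand: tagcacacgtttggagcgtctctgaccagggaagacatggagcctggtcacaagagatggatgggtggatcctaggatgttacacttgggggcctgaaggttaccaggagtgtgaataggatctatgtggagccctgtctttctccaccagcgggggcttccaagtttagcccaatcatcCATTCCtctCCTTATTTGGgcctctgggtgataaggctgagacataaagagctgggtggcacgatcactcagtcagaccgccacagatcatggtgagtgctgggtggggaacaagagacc
Actc1, chr2:114052826-114053125, minus strand: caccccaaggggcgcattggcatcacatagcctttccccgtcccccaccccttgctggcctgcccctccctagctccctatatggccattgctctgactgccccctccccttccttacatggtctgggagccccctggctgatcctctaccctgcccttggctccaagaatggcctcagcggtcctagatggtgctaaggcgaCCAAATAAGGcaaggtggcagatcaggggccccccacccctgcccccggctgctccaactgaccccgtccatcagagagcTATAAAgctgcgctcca
Nppa, chr4:148000472-148000771, plus strand: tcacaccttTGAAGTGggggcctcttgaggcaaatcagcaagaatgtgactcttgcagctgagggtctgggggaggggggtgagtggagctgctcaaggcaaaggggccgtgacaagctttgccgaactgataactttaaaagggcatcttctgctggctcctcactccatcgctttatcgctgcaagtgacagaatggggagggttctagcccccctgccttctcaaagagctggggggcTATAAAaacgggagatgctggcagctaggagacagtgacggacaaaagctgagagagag

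In Myl7 the capitals are an MCAT element (CATTCC, bound by TEAD factors) and a CArG box (bound by serum response factor with its partner Myocd) that start 70 and 61 bases before the annotated start. In Actc1 they are a CArG box 47 bases before the annotated start and a TATA box (TATAAA) 33 bases after it. In Nppa they are a site of the NK2 class, to which Nkx2-5 belongs (TNAAGTG), 241 bases before the start and a TATA box 9 bases before it. Promoters were found for 34 of the 40 members, 42 promoters in all, since some genes have several starts and these are not independent. A CArG box was in 5 of the 42 (11.9%), those of Actc1, Ldb3, Myl3 and Myl7, and in 1.63% of all 32851 promoters. The MCAT element was in 11 (26.2%) and in 14.7% of all, TATAAA in 9 (21.4%) and in 13.6% of all, and the GATA site AGATAA in 7 (16.7%) and in 11.2% of all. The MEF2 site was in 3 (7.14%) and in 3.19% of all, and TNAAGTG in 4 (9.52%) and in 11.5% of all. Both strands were searched, a MEF2 site can contain TATAAA, and a match of letters does not show that a factor binds.

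Calcium handling genes, which release calcium into the muscle cell and pump it back, were only slightly higher. None of the 6 reached 2-fold, their median fold was 1.27, and mutant pool 1 was the highest pool for 5. Atp2a2, the calcium pump of the sarcoplasmic reticulum, had an average ratio of 1.48 in mutant pool 1, 1.02 and 0.876 in mutant pools 2 and 3, and 0.935, 0.974 and 1.09 in the wild-type pools, 1.52-fold above the mean of the others. Pln, the inhibitor of that pump, had 1.34 in mutant pool 1, 1.01 and 0.898 in mutant pools 2 and 3, and 1.01, 1.02 and 0.831 in the wild-type pools. Ryr2, the release channel, had 1.29 in mutant pool 1, 1.05 and 0.893 in mutant pools 2 and 3, and 1.05, 0.982 and 0.958 in the wild-type pools. Averaged over the probe sets of a gene, the largest of these differences is smaller than the smallest of the thick filament group. Single probe sets of the groups overlapped, since 1 of Atp2a2 gave 1.95-fold and 1 of Myh6 gave 1.40-fold. Sln, a pump inhibitor of atrial muscle, was 1.22-fold above the other pools, the sodium-calcium exchanger Slc8a1 1.12-fold, and the calcium store protein Casq2 1.05-fold. For Casq2, wild-type pool 1 was higher than mutant pool 1.

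Z-disc and other structural genes, which anchor the thin filaments and bear load, ran from 1.02-fold to 5.18-fold. Of 10 genes 3 were at least 2-fold above the other pools, and the median fold was 1.48. Smpx, a small stretch-related muscle protein encoded on the X chromosome, had a ratio of 5.03 in mutant pool 1, 1.05 and 0.847 in mutant pools 2 and 3, and 0.982, 0.977 and 1.02 in the wild-type pools. Ankrd1, a nuclear and sarcomeric ankyrin repeat protein, had 4.29 in mutant pool 1, 0.860 and 1.01 in mutant pools 2 and 3, and 0.940, 1.05 and 0.959 in the wild-type pools, and its 2 probe sets gave 4.56-fold and 4.36-fold. Actn2, the actinin that cross-links actin at the Z-disc, had 2.04 in mutant pool 1, 1.08 and 0.971 in mutant pools 2 and 3, and 1.03, 0.936 and 0.695 in the wild-type pools. At 2.20-fold it was the member just above the 2-fold line, and Nppb at 1.98-fold was the member just below it. The small heat shock gene Hspb7 was 1.91-fold above the other pools, the LIM protein gene Csrp3 1.58-fold, Ldb3 1.39-fold and the intermediate filament gene Des 1.25-fold. Xirp1 and Tcap were 1.19-fold and 1.17-fold above them, and Myoz2, a calcineurin-binding protein of the Z-disc, was 1.02-fold above them. Xirp1 and Myoz2 were highest in wild-type pool 1.

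The natriuretic peptides, hormones secreted by heart muscle, were both higher. Nppa had a ratio of 3.14 in mutant pool 1, 0.997 and 0.998 in mutant pools 2 and 3, and 1.002, 1.11 and 0.854 in the wild-type pools, 3.18-fold above the mean of the others. Nppb had 1.82 in mutant pool 1, 0.993 and 0.807 in mutant pools 2 and 3, and 1.01, 1.02 and 0.785 in the wild-type pools. Neither gene overlapped between mutant pool 1 and the rest.

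The pair of energy genes differed from each other. Cox6a2, the muscle isoform of a cytochrome oxidase subunit, had a ratio of 1.31 in mutant pool 1, 0.975 and 0.934 in mutant pools 2 and 3, and 1.14, 1.03 and 0.743 in the wild-type pools. Ckm, the creatine kinase of mature muscle, had 0.969 in mutant pool 1, 1.03 and 0.904 in mutant pools 2 and 3, and 1.06, 1.03 and 0.872 in the wild-type pools, with mutant pool 1 in the middle.

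Cardiac regulators were slightly higher, with a median fold of 1.29 and none of 6 at 2-fold. Nkx2-5, the homeobox gene of cardiac progenitors and heart muscle, had a ratio of 1.49 in mutant pool 1, 0.954 and 1.02 in mutant pools 2 and 3, and 1.10, 0.983 and 0.740 in the wild-type pools, 1.57-fold above the mean of the others. Smyd1, a methyltransferase needed for sarcomere assembly, averaged 1.42 in mutant pool 1, 0.998 and 0.883 in mutant pools 2 and 3, and 1.03, 0.976 and 0.941 in the wild-type pools. Myocd, the coactivator of serum response factor, averaged 1.28 in mutant pool 1, 1.07 and 0.963 in mutant pools 2 and 3, and 1.08, 0.938 and 0.873 in the wild-type pools. For these genes mutant pool 1 was again the highest pool. Mef2c and Tbx20, transcription factors of heart progenitors and chambers, were 1.27-fold and 1.25-fold above the other pools. Gja5, the connexin of atrial and conduction cells, had 0.975 in mutant pool 1, 0.957 and 1.09 in mutant pools 2 and 3, and 1.03, 1.04 and 0.897 in the wild-type pools, and did not stand apart.

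Genes of both chamber types were among the high members. Of 6 genes typical of atrial muscle (Myl7, Myl4, Myh6, Sln, Nppa and Gja5) 4 were at least 2-fold above the other pools, with a median fold of 3.26. Of 3 typical of ventricular muscle (Myl2, Myl3 and Myh7) all 3 were, with a median fold of 4.14. Several atrial genes, Myl7 foremost, are made all along the heart tube at this stage, and the lists are too short for an order between the chambers.

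**Figure D2:**
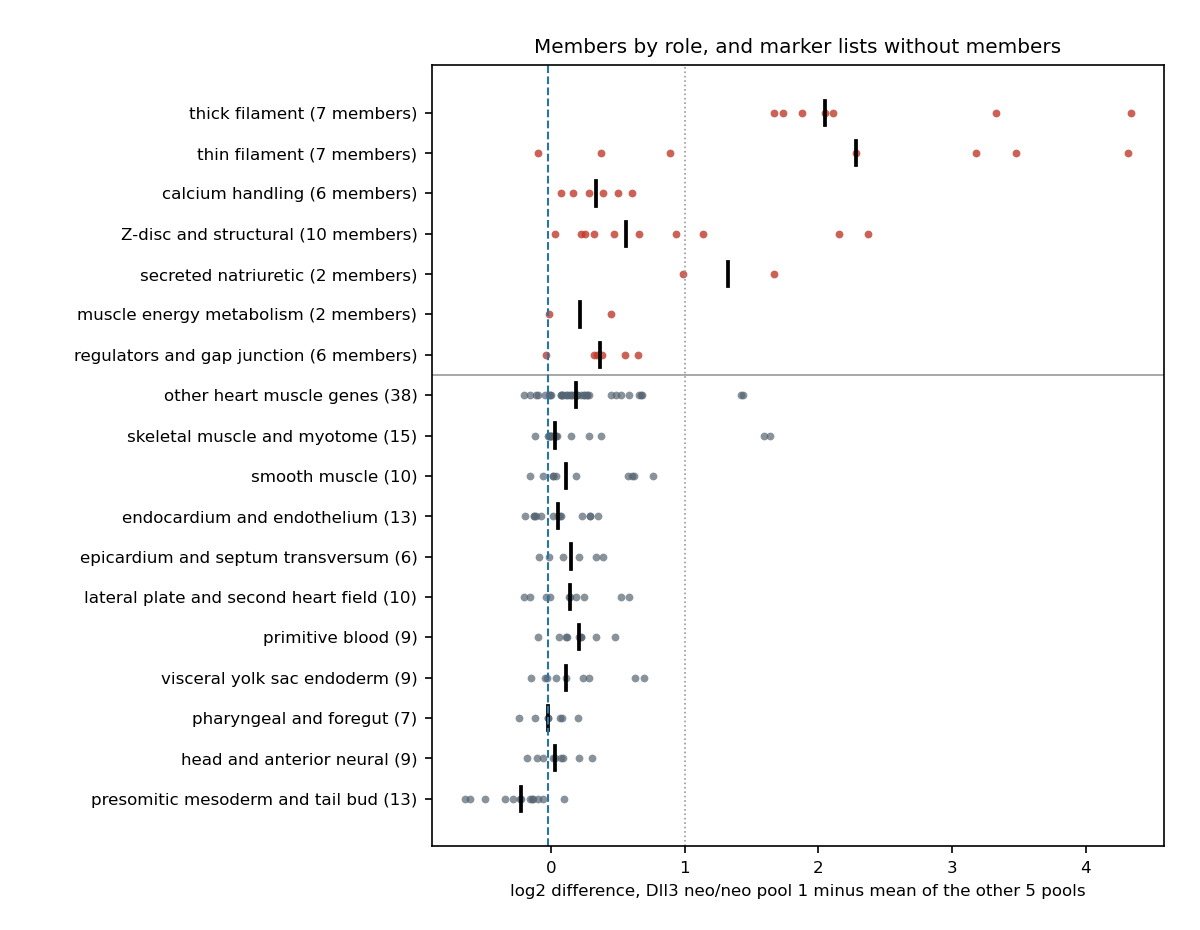
Points are genes, placed by the log2 difference between mutant pool 1 and the mean of the other 5 pools, with the members by role in red and the marker lists, freed of members, in grey. Black ticks are medians, the dashed line is the median of all genes (-0.02) and the dotted line is 2-fold. The thick and thin filament medians are 2.05 and 2.28, and the medians of the marker lists lie between -0.22 and 0.21.

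Of the 18 members read by more than 1 probe set, several gave unequal values. Probe set 1422580_at of Myl4 had a ratio of 17.3 in mutant pool 1 and 1457126_at had 0.997, so the 4.31-fold average of that gene joins an 18.3-fold and a 1.01-fold probe set. Smyd1 ran from 1.15-fold to 2.04-fold, Myh6 from 1.40-fold to 7.95-fold and Myl3 from 2.35-fold to 8.65-fold. Of the calcium handling genes, Atp2a2 ran from 1.05-fold to 1.95-fold, Pln from 1.18-fold to 1.71-fold and Ryr2 from 1.02-fold to 1.70-fold. Their averages above thus join higher and near-flat probe sets. Tnnt2 was high in both of its probe sets, 24.6-fold and 16.2-fold, and Tpm1 ran from 0.715-fold to 1.2-fold over 3. Probe sets of 1 gene can read different ends or splice forms of its transcript, and Myh6 and Myh7 are near-identical neighbours, so their split is uncertain. Of the 70 probe sets, 5 had a median over the arrays below 1, and 65 had a median of 1.

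**Figure D3:**
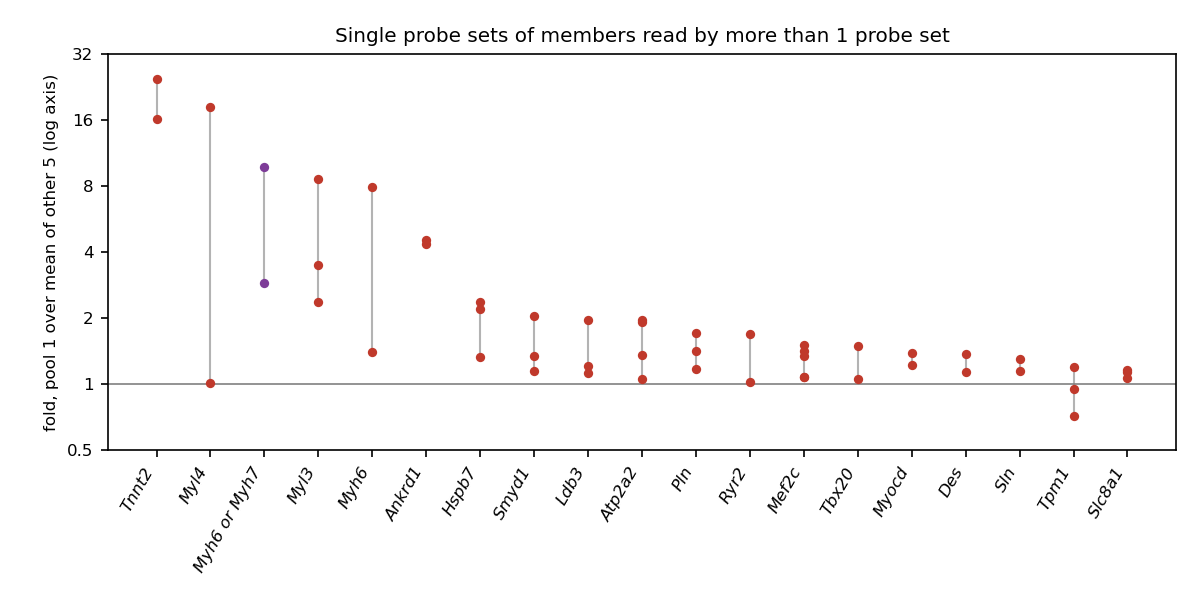
Each point is a probe set, placed by its fold in mutant pool 1 over the mean of the other 5 pools on a log axis, for the 18 members read by more than 1 probe set and, in purple, for probe sets that read Myh6 and Myh7 together. Lines join the lowest and highest probe set of a gene. Myl4 spans 1.01-fold to 18.3-fold, and Ankrd1 only 4.36-fold to 4.56-fold.

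Heart muscle genes outside the set pointed the same way by sign, by less. Of 38 measured, 30 were higher in mutant pool 1, against 5449 of all 12393 genes. It was the highest pool for 22 of the 38, and for 12% of all genes. The median log2 difference was 0.19, and 2 genes were at least 2-fold above. Those 2 were Ttn, the giant spring protein of the sarcomere (2.68-fold), and Myom1, an M-band protein (2.70-fold), followed by the chaperone Cryab (log2 difference 0.68). At the other end lay Hand2 (-0.20) and Isl1 (-0.16), transcription factors of the second heart field. Wild-type pool 3 was the lowest pool for 23 of the 38, and for 32.5% of all genes. The list's median log2 ratio was 0.11 in mutant pool 1 and -0.22 in wild-type pool 3, so a low wild-type pool 3 also enters the difference. The 10 genes outside the set that led the difference, among genes highest in mutant pool 1, were headed by the light chain gene Myl1 (3.11-fold), skeletal actin Acta1 (3.02-fold) and Sh3bgr (2.85-fold). Myom1 and Ttn came next, then Gyg, which primes glycogen (2.08-fold), and the mitochondrial gene ND5 (2.03-fold). The heat shock gene Hspb1 (1.95-fold), the calcium store gene Casq1 (1.86-fold) and Pdia3 (1.83-fold) completed them. Pdia3 is there through a single low value, a ratio of 0.0936 in mutant pool 2, and had 1.14 in mutant pool 1.

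Markers of other tissues were compared in the same way, and all values in this paragraph are log2 differences of mutant pool 1 from the mean of the other 5 pools. The background for these counts and those of the next paragraph was 5449 of all 12393 genes higher and 6944 lower. Of 16 skeletal muscle and myotome genes 10 were higher, with a median of 0.02. Myl1 (1.64) and Acta1 (1.59) stood far above the rest, and the myogenic regulators gave 0.37 for Myf6, 0.15 for Myog, -0.01 for Myf5 and -0.02 for Myod1. Of 10 smooth muscle genes 8 were higher (median 0.12), led by Myl9 (0.76), Cnn1 (0.62) and Acta2 (0.61). Mutant pool 1 was the highest pool for 4 of these 10, for 5 of the 16 skeletal muscle genes and for 12% of all genes. Endocardium and endothelium had 8 of 13 higher (median 0.05), led by Klf2 (0.36), Emcn (0.29) and Cdh5 (0.29), and 5 lower, with Tek at -0.19. Mutant pool 1 was the highest pool for 3 of the 13, and Emcn was highest in mutant pool 2. Epicardium and septum transversum had 4 of 6 higher (0.15), led by Tbx18 (0.39), Upk3b (0.34) and Wt1 (0.21). Mutant pool 1 was the highest pool for 2 of the 6, and Wt1 was highest in mutant pool 2. Lateral plate and second heart field genes had 7 of 11 higher (0.14), led by Gata5 (0.58), Gata4 (0.52) and Mef2c (0.34); 7 of these 11 are also on the list of other heart genes and 1 is a member.

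Primitive blood had 8 of 9 genes higher on the same log2 scale (median 0.21), led by Alas2 (0.48), Hba-x (0.34) and Hbb-bh1 (0.22). Mutant pool 1 was the highest pool for 6 of these 9, against 12% of all genes. Visceral yolk sac endoderm had 6 of 9 higher (0.11), led by Afp (0.70), Ttr (0.63) and Fgb (0.28), and mutant pool 1 was the highest pool for 5. The lists named for anterior tissues had medians close to 0, with single genes on both sides. Pharyngeal and foregut genes had 3 of 7 higher (median -0.02, with Sox2 -0.23, Pax1 0.20 and Nkx2-1 -0.12). Head and anterior neural genes had 6 of 9 higher (0.03, with Lhx2 0.31, Hesx1 0.21 and En2 -0.18). Mutant pool 1 was the highest pool for 0 of these 7 and 2 of these 9. Presomitic mesoderm and tail bud genes, which mark the labelled tissue, had 12 of 13 lower (median -0.22), against 6944 of all 12393 genes. The largest differences were those of Cdx4 at -0.64, Fgf17 at -0.60 and Hes7 at -0.49. For these 3 genes mutant pool 1 was the lowest pool. Over the list of 13 it was not: the median log2 ratio was -0.19, -0.23 and 0.10 in mutant pools 1, 2 and 3, against 0.14, -0.06 and 0.42 in wild-type pools 1, 2 and 3. The other 5 pools hold all 3 wild-type pools, so a difference between genotypes would enter these values. Of the 3 named genes, Hes7 was lower in every mutant pool than in any wild-type pool, and for Cdx4 and Fgf17 the genotypes overlapped. Since values are ratios to a median, no marker can be said to be absent from any pool. The part of these tissues in the height of the heart genes was not tested.

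Among the other 5 pools the range was under 1 log2 unit for all 40 members and for 12263 of all 12393 genes. Its median was 0.30 in the members and 0.35 in all genes, and the widest of a member was that of Tnni1 (0.75). Wild-type pool 3 was the lowest of the 6 pools for 22 members, or 55%, where it was the lowest for 32.5% of all genes. By pool, the members' median log2 ratio stood at 0.57, -0.0005 and -0.06 in mutant pools 1, 2 and 3, against 0.01, 0.0015 and -0.19 in wild-type pools 1, 2 and 3.

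The comparison of genotypes, the question of the series, called none of the members. In limma over all 12393 genes with Benjamini-Hochberg adjustment, 0 of 40 members passed an adjusted p of 0.05 in either direction. The background was 0% of all genes higher in the mutant and 0.00807% lower, which was Dll3 alone (adjusted p = 0.00132). At an unadjusted p under 0.05 the counts were 0 of 40 members and 159 of all genes, and no other tool was run. The members' median log2 difference, mutant minus wild type, was 0.21, and 37 of 40 were higher by sign, against 6338 of all 12393 genes, but this fit includes the pool that chose them. For Myl7 the difference was 1.49 with an SE of 0.92 and an unadjusted p of 0.137 in limma. All 3 mutant pools lay above all 3 wild-type pools for 2 members, Myh6 and Mef2c, or 5%, against 3.11% of all genes. For Tpm1 all 3 lay below them (log2 difference -0.12, unadjusted p of 0.231 in limma). The share of all genes below in this way was not counted.

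Without mutant pool 1, the 2 remaining mutant pools and the 3 wild-type pools give a comparison that the choice of members did not use. In the same limma fit 0 of 40 members passed in either direction and 0 had an unadjusted p under 0.05. The background was 0% of all genes higher and 0.00807% lower, again Dll3 (adjusted p = 0.0173), and 164 genes had an unadjusted p under 0.05. By sign 25 members were higher and 15 lower in the mutant, against 6948 and 5445 of all genes. Their median log2 difference was 0.02, equal to that of all genes (0.02). Myl7 had a log2 difference of 0.05 (95% interval -0.26 to 0.37), Tnnt2 0.06 (-0.21 to 0.33) and Myl2 0.13 (-0.17 to 0.44). The highest values were those of Actc1 at 0.32 (-0.11 to 0.74) and Tnni1 at 0.32 (-0.07 to 0.71), and the lowest was that of Mybpc3 at -0.16 (-0.50 to 0.17). These intervals all include 0 and leave room for differences of that size. Mutant pools 2 and 3 lay above all wild-type pools for Myh6 and Mef2c, 5% of members against 8.34% of all genes, and below them for Tpm1, 2.5% against 4.42%.

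**Figure D4:**
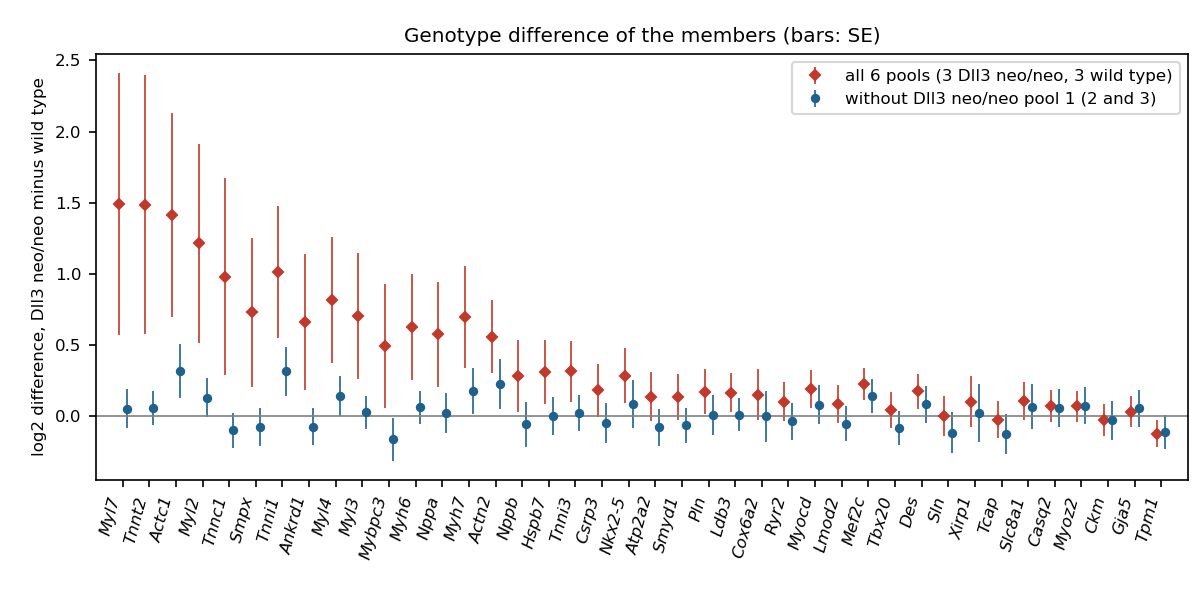
Points are the log2 differences, mutant minus wild type, of the 40 members, ordered by their height in mutant pool 1, with SE bars from limma. Red diamonds use all 6 pools and run from -0.12 for Tpm1 to 1.49 for Myl7. Blue circles leave out mutant pool 1 and run from -0.16 to 0.32.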

How the data were processed

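RNA from 3 mutant and 3 wild-type pools was read on MOE430A arrays. The deposited values are linear ratios, for most probe sets to the median of the probe set across the 6 arrays. From the values, that median is 1 within 0.0011 for 92.8% of 22626 probe sets. It is lower for 1640, whose divisor is unknown. Per the submitters' processing notes, RMA and MAS5 were used, with no role or order given, so background correction, normalization and absolute level are unknown. The 64 control probe sets were not used. Of the rest, 20380 had 1 gene symbol, 691 had several and 1555 were unnamed here. Current symbols came from Entrez IDs in the RefSeq table of GRCm38.p6.

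Log2 ratios were averaged over the probe sets of a gene. Mutant pool 1 was set against the mean of the other 5 pools as a description. The genotype comparison, with and without mutant pool 1, used a two-sided moderated test without covariates across 12393 genes (R 4.3.3, limma 3.58.1). The fit was tested on simulated data with known changes. The simulated noise took its spread from the other 5 pools, so no simulated pool stood apart as mutant pool 1 did. Figures used matplotlib 3.10.9 in Python 3.11.15. Alternatives concerned normalization, offset, choice of probe sets, variance model, leaving out pools, and the replicate number as a block. The number of arrays limits the precision.

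The members, roles and marker lists were chosen with earlier results of these data known. Values in every pool are given for the 3 members of each role with the largest difference in mutant pool 1, for members lower there, and for members whose probe sets disagree (1 at least 2-fold and another under 1.2-fold). Outside the set, the 10 leading genes and up to 3 per marker list are named. Myog, Myf5, Myod1, Hand2, Isl1 and the remaining members' folds were added after their values were seen.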

Additional observations from a re-analysis of the deposited data

Results flagged for a closer look

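Probe sets tied to more than 1 gene were left out of the values above, and 2 of them read the neighbouring myosin heavy chain genes Myh6 and Myh7 together. Both were above every wild-type pool in mutant pool 1. Probe set 1448554_s_at had a ratio of 9.45 in mutant pool 1, 1.03 and 0.974 in mutant pools 2 and 3, and 1.03, 0.937 and 0.864 in wild-type pools 1, 2 and 3, 9.80-fold above the mean of the other 5 pools. Probe set 1448827_s_at had 2.41 in mutant pool 1, 0.831 and 0.894 in mutant pools 2 and 3, and 0.805, 0.894 and 0.744 in the wild-type pools, 2.89-fold above it. The first lies above the averages of Myh6 (3.33-fold) and Myh7 (3.18-fold).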

How the results depend on the processing

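The median log2 difference of the 40 members in mutant pool 1 (0.63) stayed above 0 under every alternative run, and so did that of each role group. Leaving out each of the other 5 pools in turn gave 0.58 to 0.64, and 15 to 16 members at 2-fold (15 with all pools). The thin filament median (2.28) ran from 2.17 to 2.36 in those sets, lowest without wild-type pool 3, and was 2.09 against mutant pools 2 and 3 alone. Quantile normalization, which by construction pulls in values that are extreme on 1 array, gave a member median of 0.53, medians of 0.87, 0.96 and 0.73 for thick filament, thin filament and natriuretic genes, and 5 members at 2-fold. On log2(value + 1), which shrinks differences by construction, the member median was 0.34, and those of thick filament, thin filament, calcium handling, Z-disc, natriuretic and regulator genes were 1.38, 1.52, 0.18, 0.31, 0.81 and 0.19. The thick filament median (2.05) was 1.88 with the median probe set of each gene, and 1.88 without probe sets marked _x_ or _s_.

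No member passed the genotype test under any alternative. With all 6 pools the count over all genes was 1 and became 2, Dll3 and Hnrnpl, with quantile normalization, median centring, only probe sets with a median of 1, or limma's variance trend and robust setting together; leaving out a pool gave 1 to 2, with 2 without wild-type pool 3. Without mutant pool 1 the count was 2 with quantile normalization and 2 with trend and robust setting together, 0 on log2(value + 1) (164 at unadjusted p under 0.05) and 0 with single probe sets (318). Leaving out a further pool gave 0 to 11, with 0 (58 at unadjusted p under 0.05) without mutant pool 2 and 11, all lower, without mutant pool 3, where the lone mutant pool is assumed to vary like the wild type. With the replicate number as a block the counts were 1 with all pools and 16 without mutant pool 1, no member among them. Whether the numbers pair the samples is not settled. Deviations of same-numbered pools correlated at 0.19, -0.0015 and 0.21 across genes, and those of other pairs ran from -0.20 to 0.12. Mutant pools 1 and 3 correlated best with the wild-type pool of their own number, and mutant pool 2 with wild-type pool 3 (0.02). The absolute level of signal is unknown, so how dim the members near 1-fold were cannot be given.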
